A study of Saccharomyces cerevisiae with 18 samples.

Results

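The quantity described here is the difference between 2 ethanol responses in budding yeast: the change with 6.5% ethanol in the ethanol-tolerant mutant SM1 minus the change with 6.5% ethanol in its parent W303-1A. It rests on 12 of the 18 two-colour arrays of the study and covers 5650 genes, which are all the genes reached by a probe with 1 gene symbol. The 4 groups were SM1 with 6.5% ethanol in the medium, SM1 with 0%, W303-1A with 6.5% and W303-1A with 0%, each with 3 separate cultures and 1 array a culture. W303-1A is a haploid laboratory strain, and SM1 is 1 mutant line of it, so a strain difference is that of this 1 line. The remaining 6 arrays, of a second mutant named CM1 with and without ethanol, entered the fit for the estimate of the spread. The cultures of a strain were started from its own unstressed culture in late exponential growth, and each array set the RNA of 1 culture against RNA pooled over 3 W303-1A cultures at 0%.

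Ethanol makes the yeast plasma membrane more permeable, unfolds proteins and slows growth. Cells that meet it usually lower the genes of ribosome production and raise those of protein folding, energy reserves and the general stress programme run by the transcription factors Msn2 and Msn4. A response difference above 0 can therefore come from a gene that rose more in the mutant or from a gene that fell less. The components are given beside many of the differences below, but not all. Where only the ethanol arrays are printed, the difference also depends on the arrays without ethanol, which are not shown.

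Values are log2 ratios of culture over pool, so that 1 unit corresponds to 2-fold. The 3 values of a group are always given in the order of replicates 1, 2 and 3, and replicate 1 is the dye-swapped array, whose sign was turned. A difference is followed by the standard error of the limma fit with n = 3 arrays a group, and a gene is called where the Benjamini-Hochberg adjusted p over all 5650 genes was under 0.05. The direction of the deposited ratio is not stated and is taken as red over green. Read as green over red, every sign in the text would turn, with 103 genes higher in SM1 and 257 lower, and genes such as HSP12 and HSP26 would fall with ethanol in both strains. That replicate 1 runs opposite to the others can be checked, unlike the direction itself. Before the signs were turned, the swapped ethanol arrays ran against the normal ones after the matching arrays at 0% ethanol were subtracted, with correlations across genes of -0.310 and -0.280 in SM1 and of -0.485 and -0.492 in W303-1A. Ratios carry no absolute level, so levels are not compared between genes, and in a bulk culture fewer cells expressing a gene and less RNA per cell cannot be told apart. Probes of near-identical copies (ribosomal protein pairs, SSA1 and SSA2, TDH, ENO, ADH, PHO11 and PHO12, histones) can read each other's transcripts, so a value there may belong to either copy.

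In all, 360 of 5650 genes (6.37%) had a called response difference. It was above 0 for 257 genes (4.55%) and below 0 for 103 (1.82%). The median over all genes was 0.010, and 76.7% of genes lay within 1 of 0. The standard error of the difference had a median of 0.45, and the smallest difference called was 0.89. The count depended on single arrays. It was 151 without SM1 0% replicate 2, 161 without SM1 0% replicate 3, 204 without W303-1A 0% replicate 2, 230 without W303-1A 0% replicate 3 and 223 without W303-1A 6.5% replicate 3, and lay between 244 and 367 without any 1 of the other 7 arrays. All 360 genes kept their sign in each of these fits. Of the called genes named here, 69 of 108 were called in all 12 fits. For the others, the number of the 12 fits with a call or the arrays that end it are given where their value is printed. Other settings cost calls too. Of the 108, 52 were not called without the dye term, 35 after quantile normalization and 33 with the normal arrays alone. A further setting, with a trend along the probe number removed, lost 25. These losses by setting are printed beside only part of the genes.

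**Figure D1:**
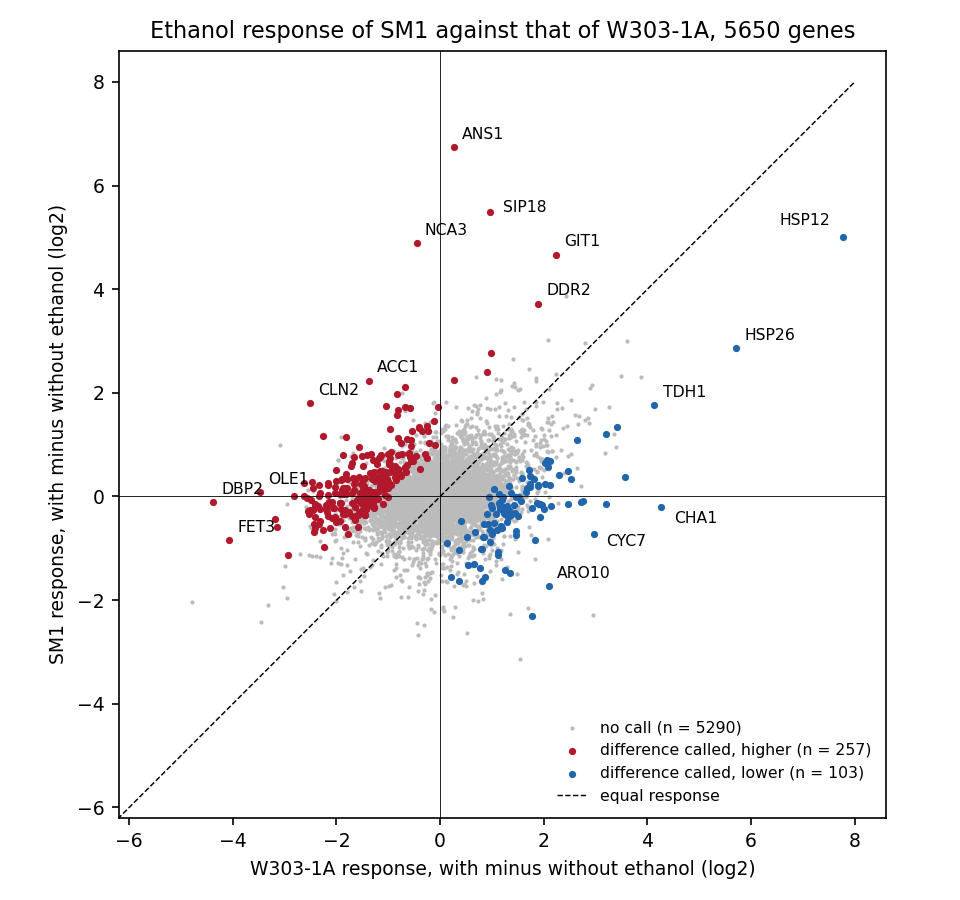
Each point is 1 of 5650 genes, with the change with ethanol in SM1 (log2, vertical axis) against that in W303-1A (log2, horizontal axis); red and blue points are the 257 and 103 genes called higher or lower in SM1, and the dashed line marks equal responses. Most red points lie left of 0 and near 0 in height, as for DBP2 (-0.10 in SM1, -4.39 in W303-1A), and ANS1, NCA3 and SIP18 lie near the top, within 1 of 0 on the horizontal axis.

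Most of the higher differences belonged to genes that fell in the parent. Among the 257 higher genes, 210 fell in W303-1A and were not called in SM1, where 160 genes (2.83%) rose and 71 (1.26%) fell, against 578 (10.2%) and 771 (13.6%) in W303-1A. The SM1 total of 231 (4.09%) was 124, 113 and 119 without replicates 1, 2 and 3 of SM1 at 0%. The W303-1A total was 1349 (23.9%). Another 9 of the higher genes rose in SM1 and fell in W303-1A, 20 rose in SM1 and were not called in W303-1A, 3 rose in both (DDR2, ERO1, GIT1), 2 fell in both (ERG11, NDE1) and 13 were called in neither. Among the 103 lower genes, 76 rose in W303-1A and were not called in SM1. A further 6 rose in both strains (ALD4, EGO4, HOR7, HSP12, HSP26, TDH1), 4 fell in SM1 and rose in W303-1A (ARO10, PIN4, YGR122W, YPC1), 6 fell in SM1 and were not called in W303-1A, and 11 were called in neither. These splits describe the difference through its own components and share its arrays, so they add no separate evidence.

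**Figure D2:**
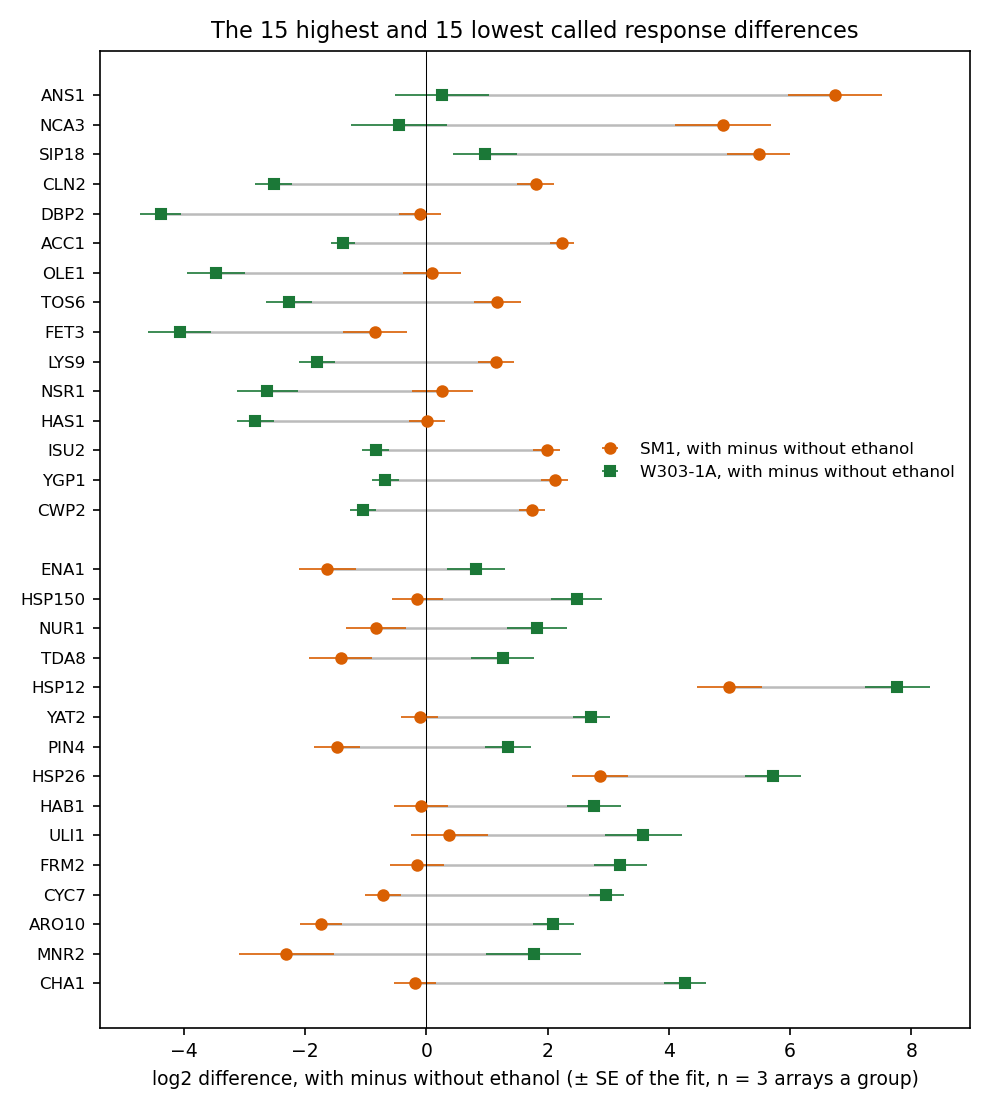
The change with ethanol in SM1 (circles) and in W303-1A (squares), each ± the standard error of the fit with n = 3 arrays a group, for the 15 highest (top) and 15 lowest (bottom) called response differences. ANS1, NCA3 and SIP18 differ through the SM1 value, DBP2, OLE1 and HAS1 through the W303-1A value, and CLN2, ACC1 and ARO10 moved in opposite directions.

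The 3 highest response differences belonged to genes that rose in SM1 with ethanol and were not called in W303-1A. ANS1, which encodes a putative GPI-anchored protein, stood at 10.34, 5.52 and 5.13 in SM1 with ethanol and at 0.84, 0.34 and -0.43 without, against -0.036, -0.081 and -0.15 in W303-1A with ethanol and -0.20, -0.25 and -0.59 without. Its SM1 ethanol arrays lay above all 9 others, the swapped array highest, and the response difference was 6.49 ± 1.10 (adjusted p = 0.00432). SIP18, a phospholipid-binding hydrophilin of osmotic and desiccation stress, read 7.52, 5.13 and 4.57 in SM1 with ethanol and 0.18, 0.17 and 0.42 without, against 0.28, 1.26 and 1.46 in W303-1A with ethanol and 0.15, 0.062 and -0.11 without. Again the SM1 ethanol arrays lay above all others, with a difference of 4.52 ± 0.74 (adjusted p = 0.00353). NCA3, a member of the SUN family of cell wall and mitochondrial proteins, read 7.60, 5.27 and 4.44 in SM1 with ethanol and 1.90, 0.92 and -0.19 without, against 0.66, -0.63 and -0.78 in W303-1A with ethanol and 0.72, -1.01 and 0.91 without. Its groups apart from SM1 with ethanol overlapped one another, and the difference of 5.35 ± 1.12 (adjusted p = 0.0127) was not called without the dye term, with the normal arrays alone or after quantile normalization. All 3 genes were called in 12 of 12 fits with 1 array left out. PRY2, a secreted sterol-binding protein, rose in SM1 as well and was not called in W303-1A, with 2.17, 1.91 and 2.33 in SM1 with ethanol against -0.97, -0.34 and -0.42 in W303-1A with ethanol and a difference of 2.48 ± 0.47 (adjusted p = 0.00799). Its call was lost without the dye term or with the normal arrays alone.

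The 9 genes that rose in SM1 and fell in W303-1A were ACC1, CLN2, CWP1, CWP2, ISU2, LYS9, MRP35, PEX11 and YGP1. CLN2, a G1 cyclin that drives entry into the cell cycle, read 1.03, 1.48 and 2.37 in SM1 with ethanol and -0.25, -0.32 and 0.038 without, against -2.06, -0.63 and -1.11 in W303-1A with ethanol and 0.56, 1.95 and 1.24 without. The SM1 ethanol arrays lay above, and the W303-1A ethanol arrays below, all arrays of their own strain without ethanol. The response difference was 4.32 ± 0.44 (adjusted p = 0.000169), made up of 1.80 ± 0.31 in SM1 and -2.52 ± 0.31 in W303-1A. ACC1, the acetyl-CoA carboxylase of the first step of fatty acid synthesis, had the smallest adjusted p of all genes (9.88e-06, difference 3.61 ± 0.28). It read 1.30, 1.09 and 0.85 in SM1 with ethanol and -1.01, -1.20 and -1.27 without, against -1.52, -1.16 and -1.24 in W303-1A with ethanol and -0.075, 0.13 and 0.15 without. SM1 with ethanol was the only group above the pool on all 3 arrays, and SM1 without ethanol overlapped W303-1A with ethanol. ISU2, a scaffold on which iron-sulfur clusters are built, read 0.88, 1.29 and 1.60 in SM1 with ethanol and -0.90, -0.76 and -0.52 without, against -0.48, -0.52 and -0.23 in W303-1A with ethanol and -0.10, 0.73 and 0.64 without. It differed by 2.82 ± 0.32 (adjusted p = 0.000184), with no overlap between SM1 with ethanol and any other group. PEX11, a peroxisome membrane protein, differed by 1.95 ± 0.38 and MRP35 by 1.79 ± 0.34. In W303-1A the ethanol arrays of PEX11 (-1.46, -0.34 and 0.077) and of MRP35 (-1.27, 0.021 and 0.23) spread widely, with the swapped array lowest. PEX11 and MRP35 were not called without the dye term.

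**Figure D3:**
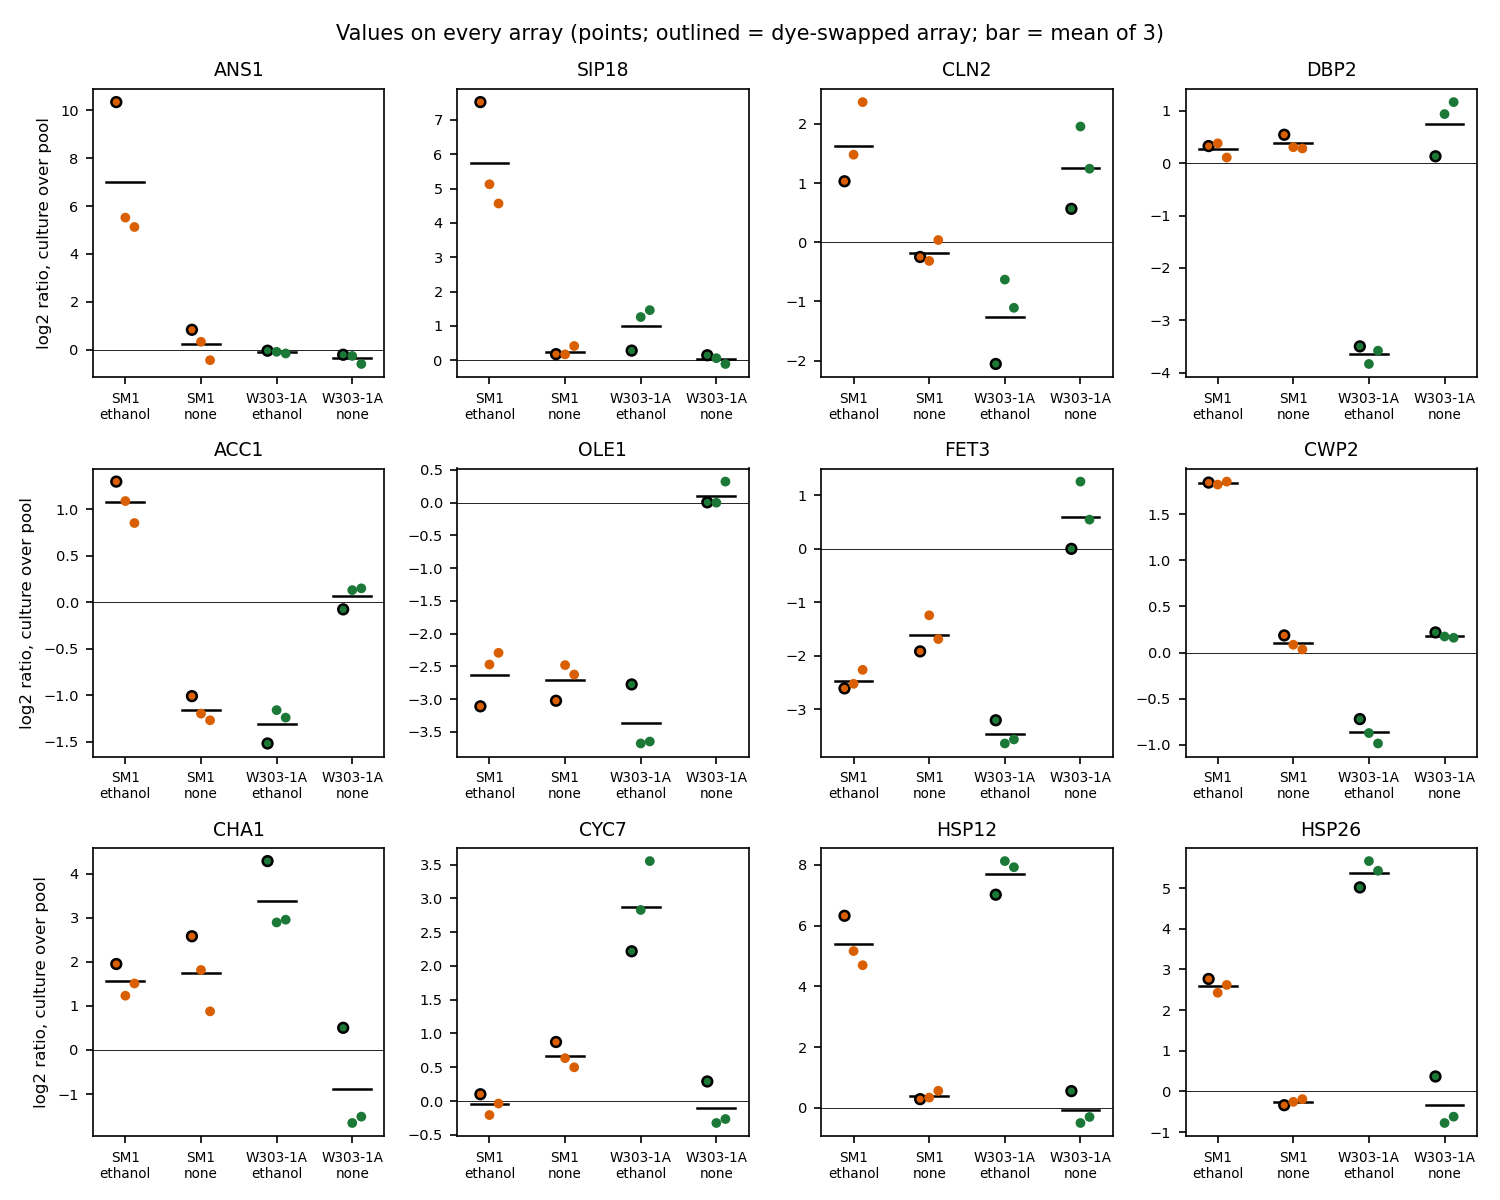
Log2 ratio of culture over pool on each of 12 arrays for 12 genes (points; a dark outline marks the dye-swapped array; bars are means of 3), with SM1 with ethanol, SM1 without, W303-1A with ethanol and W303-1A without from left to right. ANS1 and SIP18 are raised in SM1 with ethanol, DBP2 is lowered in W303-1A with ethanol, and OLE1 and FET3 are already low in SM1 without ethanol.

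By count, genes of ribosome production made up the largest block of higher differences among the lists examined: many fell in the parent and few were called in SM1. The ribosomal protein list was also the longest, with 135 genes measured. By share called, the list of 7 a-cell specific genes came first (42.9%). DBP2, a DEAD-box RNA helicase of RNA decay and ribosomal RNA processing, read 0.33, 0.38 and 0.11 in SM1 with ethanol and 0.54, 0.31 and 0.28 without, against -3.50, -3.84 and -3.58 in W303-1A with ethanol and 0.13, 0.94 and 1.17 without. Only the W303-1A ethanol arrays stood apart, more than 3 units below all others, and the difference was 4.28 ± 0.48 (adjusted p = 0.000184). Of 65 ribosome assembly genes, 20 were called higher and 0 lower (30.8% called, against 6.37% of all genes). Their median difference was 1.06, against 0.010 for all genes. Their median response was -0.12 in SM1 and -1.07 in W303-1A, where 38 fell and 0 rose. HAS1, a nucleolar helicase, read 0.051, 0.39 and 0.19 in SM1 with ethanol and 0.22, 0.27 and 0.12 without, against -2.17, -2.31 and -1.72 in W303-1A with ethanol and 0.22, 1.43 and 0.63 without, a difference of 2.83 ± 0.43 (adjusted p = 0.00238). YTM1 (2.56 ± 0.50) and RRB1 (2.41 ± 0.47) are both of large-subunit assembly, as is NOG2, a GTPase (1.80 ± 0.30). NSR1, a nucleolin-like protein, differed by 2.89 ± 0.71, but its SM1 ethanol arrays read -0.021, 2.09 and -0.30 and it was called in 6 of 12 fits with 1 array left out. The count of 20 was 19 or 21 without the swapped W303-1A array at 0% or 6.5%, between 9 and 13 without any 1 of the other 10 arrays, 12 with the normal arrays alone, and 9 without the dye term or after quantile normalization.

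RNA polymerase I, which transcribes ribosomal RNA, gave 5 called genes of 13, all higher (38.5% called, against 6.37% of all genes). RPA190, its largest subunit, read -0.059, 0.43 and 0.39 in SM1 with ethanol and 0.64, 0.23 and 0.36 without, against -2.01, -2.27 and -2.11 in W303-1A with ethanol and 0.0058, -0.07 and 0.92 without. The W303-1A ethanol arrays lay below all others, and the difference was 2.26 ± 0.41 (adjusted p = 0.00691). RPA49 differed by 2.36 ± 0.40, and like RPA190 it was called in 12 of 12 fits. RPA43 (2.28 ± 0.54, 8 of 12 fits), RPA135 (1.95 ± 0.52, 3 of 12) and RPA12 (1.52 ± 0.39, 3 of 12) kept their call less often. The members without a call included the initiation factor RRN7 (-0.62), and the list median was 0.54. The count of 5 was 2 without W303-1A 0% replicate 2, W303-1A 6.5% replicate 2, SM1 0% replicate 2 or SM1 0% replicate 3, and 3 without W303-1A 0% replicate 3, W303-1A 6.5% replicate 1 or SM1 6.5% replicate 1. It was also 2 without the dye term, and 3 with the normal arrays alone, after quantile normalization or with the probe trend removed. The median was 0.86 and 0.93 without the swapped W303-1A arrays at 0% and 6.5%, 0.83 without SM1 0% replicate 1, 1.01 with the normal arrays alone, 0.94 with the probe trend removed and 0.96 with array weights. HMO1, a chromatin protein of the ribosomal DNA and of ribosomal protein genes, went the other way. It read -0.78, -0.80 and -0.72 in SM1 with ethanol and 1.22, 0.87 and 0.49 without, against 0.27, 0.26 and -0.0086 in W303-1A with ethanol and 0.14, -0.67 and -0.038 without, a difference of -1.99 ± 0.38 (adjusted p = 0.00857). The SM1 ethanol arrays were the lowest 3 of the 12. The call of HMO1 was lost with the normal arrays alone.

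Of 135 cytosolic ribosomal protein genes, 126 had a difference above 0, against 2852 of all 5650. Called higher were 28 and lower 0 (20.7% called, against 6.37% of all genes), with a median of 0.83. The median was 0.79 over the 80 genes of the large subunit and 0.92 over the 55 of the small subunit. The median response of the 135 was -0.17 in SM1 and -0.97 in W303-1A. RPL6B read -0.037, -0.24 and -0.27 in SM1 with ethanol and -0.19, 0.18 and 0.26 without, against -2.34, -2.39 and -1.81 in W303-1A with ethanol and 0.17, 0.085 and 0.56 without. Its difference was 2.19 ± 0.34 (adjusted p = 0.00264), and its close copy RPL6A differed by 1.98 ± 0.34. RPS11B read 0.018, 0.022 and -0.0063 in SM1 with ethanol against -1.39, -2.01 and -1.99 in W303-1A with ethanol, a difference of 1.91 ± 0.30 (adjusted p = 0.00264). RPL9B was the member that rose in SM1. It read 0.25, 0.46 and 0.35 in SM1 with ethanol and -1.06, -1.06 and -0.81 without, against -0.39, -0.69 and -0.36 in W303-1A with ethanol and -0.30, 0.068 and 0.044 without, so that SM1 started below the parent and ended above it (difference 1.75 ± 0.26, adjusted p = 0.00206). The lowest member was RPL1B at -0.75, not called. The count of 28 fell to 15 without SM1 0% replicate 2 and to 16 without SM1 0% replicate 3, lay between 19 and 26 without any 1 of the other arrays, was 15 with the normal arrays alone or without the dye term, 50 with array weights, and 9 after quantile normalization, with a list median of 0.46. Of 32 translation factors, 3 were called higher and 0 lower (9.38% called, against 6.37% of all genes), with a median of 0.61. Without the dye term 1 was called higher. TIF3 (1.18 ± 0.27) was called in 10 of 12 fits, PRT1, a subunit of initiation factor eIF3 (1.66 ± 0.39), in 9, and TIF11 (1.26 ± 0.34) in 4.

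**Figure D4:**
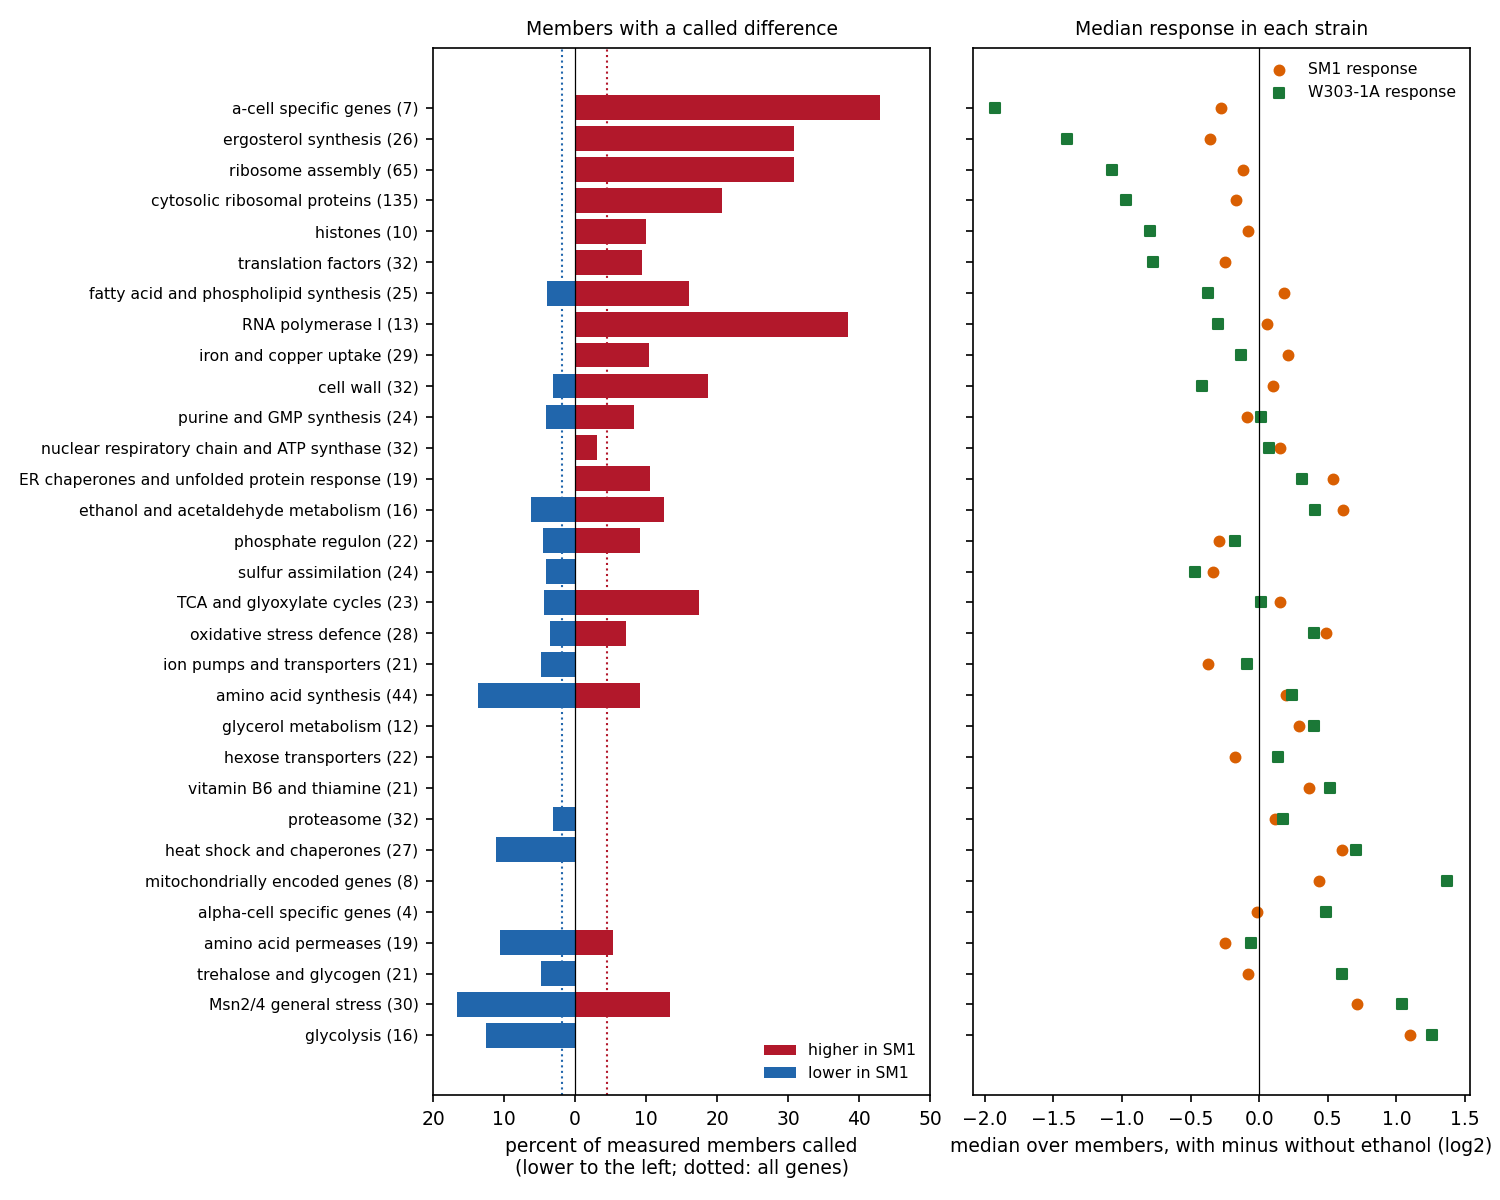
Left, the percent of measured members (number in brackets) with a response difference called higher (red, to the right) or lower (blue, to the left), with dotted lines at 4.55% and 1.82% for all 5650 genes. Right, the median change with ethanol (log2) in SM1 (circles) and W303-1A (squares). The 2 medians lie furthest apart for the a-cell genes, and the ergosterol, ribosome assembly, mitochondrially encoded and ribosomal protein lists follow. In the mitochondrially encoded list the W303-1A median is the higher (1.37, against 0.43 in SM1).

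Sterol genes fell widely in the parent and in part in SM1. Of 26 ergosterol genes, 8 were called higher and 0 lower (30.8% called, against 6.37% of all genes). Their median difference was 1.09, and the median response was -0.36 in SM1 (5 fell) and -1.40 in W303-1A (21 fell). ERG3, the C-5 sterol desaturase, read -0.73, -0.75 and -0.028 in SM1 with ethanol and -0.49, -0.41 and -0.64 without, against -1.86, -2.19 and -2.23 in W303-1A with ethanol and 0.11, 1.08 and 0.40 without. SM1 overlapped between its 2 conditions and W303-1A did not, and the difference was 2.64 ± 0.38 (adjusted p = 0.00171). ERG1, the squalene epoxidase, differed by 1.64 ± 0.35 (adjusted p = 0.0138), and these 2 were called in 12 of 12 fits with 1 array left out. The call of ERG1 was lost without the dye term or after quantile normalization. ERG25 (1.80 ± 0.44) was called in 4, IDI1, the isopentenyl diphosphate isomerase (1.40 ± 0.33), in 6, and ERG11, the lanosterol demethylase (1.28 ± 0.35), in 2 of 12. HMG1, an HMG-CoA reductase, fell in both strains, with -1.95 ± 0.31 in SM1 and -2.96 ± 0.31 in W303-1A, and the difference was not called (1.01 ± 0.44, adjusted p = 0.187). The count of 8 was 6 without SM1 6.5% replicate 2, W303-1A 0% replicate 1 or W303-1A 6.5% replicate 1, and between 2 and 4 without any 1 of the other 9 arrays. It was 4 with the normal arrays alone or the probe trend removed, 2 after quantile normalization, 1 without the dye term and 16, with 1 lower, with array weights.

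Fatty acid and phospholipid genes gave 4 of 25 called higher and 1 lower (20% called, against 6.37% of all genes). OLE1, the desaturase that makes unsaturated fatty acids, read -3.11, -2.47 and -2.29 in SM1 with ethanol and -3.02, -2.48 and -2.62 without, against -2.78, -3.68 and -3.65 in W303-1A with ethanol and 0.0032, -0.0019 and 0.32 without. The SM1 arrays did not separate by ethanol and were already low, and the parent's ethanol arrays overlapped them, so the difference of 3.56 ± 0.68 (adjusted p = 0.00799) went with no called strain difference in ethanol (0.74 ± 0.48). FAS2, a fatty acid synthase subunit (2.52 ± 0.39), and FAA4, a fatty acyl-CoA synthetase (2.18 ± 0.43), had the same pattern of a low start in SM1, at -1.74 ± 0.28 and -1.46 ± 0.30 against W303-1A without ethanol. FAS2 was not called without the dye term. INM1, an inositol monophosphatase, was lower, at -0.049, 0.39 and 0.11 in SM1 with ethanol against 1.64, 1.46 and 1.70 in W303-1A with ethanol (-1.58 ± 0.32, adjusted p = 0.0103). Its call was lost with the normal arrays alone or after quantile normalization. INO1, the inositol phosphate synthase, did not pass (-1.05 ± 0.67, adjusted p = 0.375).

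Some metal uptake and mating genes likewise stood low in SM1 before ethanol. Of 29 iron and copper genes, 3 were called higher and 0 lower (10.3% called, against 6.37% of all genes). The count of 3 was 2 with the normal arrays alone and 1 without the dye term. FET3, the multicopper oxidase of iron uptake, read -2.61, -2.52 and -2.26 in SM1 with ethanol and -1.92, -1.24 and -1.69 without, against -3.20, -3.64 and -3.56 in W303-1A with ethanol and -0.00062, 1.26 and 0.55 without. SM1 lay below the parent without ethanol and above it with ethanol, without overlap at either level, though only the first of these strain differences was called, and the response difference was 3.22 ± 0.74 (adjusted p = 0.0185). That call was lost without W303-1A 0% replicate 2 or SM1 0% replicate 3 (adjusted p up to 0.0584), and also without the dye term. CTR1, a copper transporter, differed by 2.35 ± 0.37 (adjusted p = 0.00264), with SM1 -2.25 ± 0.26 from the parent without ethanol and 0.10 ± 0.26 with it. ATX1, a copper chaperone, instead rose in SM1 (1.73 ± 0.28) and was not called in W303-1A (-0.048 ± 0.28), a difference of 1.78 ± 0.39. The call of ATX1 was lost with the normal arrays alone or without the dye term. ZRT1, a zinc transporter, differed by 1.46 ± 0.29.

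W303-1A is of mating type a. Of 7 a-cell specific genes, 3 were called higher and 0 lower (42.9% called, against 6.37% of all genes). Their median difference was 1.31. The count of 3 was 0 with the normal arrays alone and 1 without the dye term. BAR1, the protease that degrades alpha factor, read -2.58, -2.90 and -1.53 in SM1 with ethanol and -2.04, -1.84 and -1.84 without, against -2.40, -2.72 and -3.38 in W303-1A with ethanol and 0.48, 0.22 and 0.37 without. The 3 W303-1A arrays without ethanol stood above the other 9, which overlapped, and the difference was 2.76 ± 0.68 (adjusted p = 0.027, called in 4 of 12 fits). MFA2, a gene of the a-factor pheromone, differed by 1.31 ± 0.27 (adjusted p = 0.0112, 12 of 12 fits) and MFA1, the other, by 2.27 ± 0.61 (adjusted p = 0.0399, 3 of 12). MFA2 was not called with the normal arrays alone or with the probe trend removed. STE2, the alpha factor receptor, fell in both strains and its difference was not called (1.23 ± 0.50, adjusted p = 0.157). Of 4 alpha-cell specific genes, 0 were called by limma and 0 had an unadjusted p under 0.05.

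Cell wall genes had 6 of 32 called higher and 1 lower (21.9% called, against 6.37% of all genes), with a median of 0.43. CWP2, a major wall mannoprotein, read 1.85, 1.82 and 1.86 in SM1 with ethanol and 0.19, 0.084 and 0.034 without, against -0.72, -0.87 and -0.99 in W303-1A with ethanol and 0.22, 0.17 and 0.16 without. Its 2 strains overlapped without ethanol and were on opposite sides of the pool with it, a difference of 2.79 ± 0.30 (adjusted p = 0.000184). CIS3, a PIR-type wall protein, read 0.91, 0.54 and 0.30 in SM1 with ethanol against -1.93, -2.22 and -2.61 in W303-1A with ethanol (2.76 ± 0.32, adjusted p = 0.000199). CWP1, another mannoprotein (2.39 ± 0.35, adjusted p = 0.00191), and YGP1, a secreted glycoprotein (2.79 ± 0.31, adjusted p = 0.000184), started lower in SM1 without ethanol, at -2.23 ± 0.25 and -2.20 ± 0.22, and were not called against the parent with ethanol. TOS6, a GPI-anchored wall protein outside the list, read 1.60, 1.38 and 2.14 in SM1 with ethanol against -2.26, -2.07 and -1.22 in W303-1A with ethanol (3.44 ± 0.54, adjusted p = 0.00293). HSP150, a PIR protein induced by heat, was the lower member, at -0.15, -0.17 and 0.10 in SM1 with ethanol and 0.32, -0.019 and -0.075 without, against 3.26, 3.29 and 1.73 in W303-1A with ethanol and 0.96, -0.39 and 0.28 without. It rose in W303-1A alone, and its difference of -2.63 ± 0.60 (adjusted p = 0.0181) was not called without W303-1A 0% replicate 2, SM1 0% replicate 2 or SM1 0% replicate 3 (adjusted p up to 0.0525). Nor was HSP150 called with the normal arrays alone, without the dye term or after quantile normalization.

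Among stress genes the differences ran both ways. Of 30 Msn2/4 targets, 4 were called higher (SIP18, YGP1, CTT1, DDR2) and 5 lower (HSP12, HOR7, MRK1, GLK1, STF2). That is 30% called, against 6.37% of all genes, and the list median was -0.53. The 5 lower genes were 2 without W303-1A 6.5% replicate 2, SM1 0% replicate 1 or SM1 0% replicate 3, and 3 without W303-1A 0% replicate 2 or 3, W303-1A 6.5% replicate 3 or SM1 0% replicate 2. They were 2 without the dye term or with the probe trend removed, 3 after quantile normalization, 8 with the 12 arrays alone and 10 with array weights. The median was -0.24 without SM1 6.5% replicate 1 and -0.33 without W303-1A 6.5% replicate 2. DDR2, a multistress protein, rose in both strains and more in SM1. It read 4.29, 3.95 and 4.08 in SM1 with ethanol and 0.10, 0.49 and 0.56 without, against 2.25, 2.49 and 2.11 in W303-1A with ethanol and -0.028, 0.59 and 0.60 without, a difference of 1.83 ± 0.32 (adjusted p = 0.00602). The call of DDR2 was lost after quantile normalization. HOR7, a small membrane protein of osmotic stress, rose in both strains and less in SM1. It read 1.53, 1.08 and 1.44 in SM1 with ethanol and -0.23, 0.089 and 0.19 without, against 3.04, 3.92 and 3.12 in W303-1A with ethanol and -0.17, -0.10 and 0.13 without, a difference of -2.08 ± 0.33 (adjusted p = 0.00293). CTT1, the cytosolic catalase, rose in SM1 only by call, at 1.06, 1.04 and 1.06 in SM1 with ethanol against -0.91, 0.22 and 0.15 in W303-1A with ethanol (2.42 ± 0.56, adjusted p = 0.0188). Its call was lost without SM1 0% replicate 2, SM1 0% replicate 3 or SM1 6.5% replicate 1 (adjusted p up to 0.0633), and also without the dye term. STF2, a hydrophilin, had a difference of -1.51 ± 0.28, called in 12 of 12 fits, and MRK1, a glycogen synthase kinase homologue, one of -1.95 ± 0.50, called in 4.

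Of 27 heat shock and chaperone genes, 3 were called lower and 0 higher (11.1% called, against 6.37% of all genes). Their median difference was -0.30. At an unadjusted p under 0.05 in the limma fit, 6 were lower and 4 higher, against 496 lower and 809 higher of all 5650 genes. The count of 3 was 1 without W303-1A 0% replicate 2, SM1 0% replicate 2 or SM1 0% replicate 3, 0 after quantile normalization, and 5 with array weights, and 1 gene was higher without W303-1A 6.5% replicate 2. The median was -0.13 without SM1 6.5% replicate 2, -0.17 without W303-1A 6.5% replicate 3, -0.47 without W303-1A 6.5% replicate 1, -0.54 with the normal arrays alone and -0.10 after quantile normalization. HSP26, a small heat shock chaperone, read 2.77, 2.43 and 2.62 in SM1 with ethanol and -0.34, -0.25 and -0.19 without, against 5.02, 5.66 and 5.43 in W303-1A with ethanol and 0.37, -0.77 and -0.62 without. Both strains raised it and their ethanol arrays did not overlap, a difference of -2.85 ± 0.65 (adjusted p = 0.0188). This call was lost without W303-1A 0% replicate 2, SM1 0% replicate 2 or SM1 0% replicate 3 (adjusted p up to 0.0582), and also after quantile normalization. HSP12, a membrane-associated small heat shock protein, read 6.32, 5.16 and 4.69 in SM1 with ethanol and 0.28, 0.33 and 0.56 without, against 7.01, 8.12 and 7.92 in W303-1A with ethanol and 0.55, -0.50 and -0.30 without. The ethanol arrays of the 2 strains did not overlap, but the call (-2.77 ± 0.76, adjusted p = 0.0434) was kept in only 2 of 12 fits, those without the swapped ethanol array of either strain. SSA1, a cytosolic Hsp70, rose in W303-1A (2.52 ± 0.34) and was not called in SM1 (0.35 ± 0.34), a difference of -2.18 ± 0.48 (adjusted p = 0.016). It was called in 12 of 12 fits with 1 array left out, but not with the normal arrays alone or after quantile normalization. HSP104, the disaggregase, did not pass (-1.06 ± 0.41, adjusted p = 0.141).

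CYC7, the cytochrome c isoform of low oxygen, was lower by a wide margin. It read 0.10, -0.21 and -0.037 in SM1 with ethanol and 0.87, 0.64 and 0.50 without, against 2.22, 2.83 and 3.55 in W303-1A with ethanol and 0.29, -0.32 and -0.27 without. The W303-1A ethanol arrays lay above all others and SM1 lay below its own arrays without ethanol, for a difference of -3.68 ± 0.41 (adjusted p = 0.000184). FRM2, a nitroreductase-like protein, differed by -3.35 ± 0.62 (adjusted p = 0.00764), with 0.013, -0.82 and -0.37 in SM1 with ethanol against 3.57, 1.78 and 2.12 in W303-1A with ethanol. YAT2, a carnitine acetyltransferase, stood at 0.80, -0.49 and -0.75 in SM1 with ethanol against 2.66, 2.53 and 2.45 in W303-1A with ethanol (-2.83 ± 0.43, adjusted p = 0.00246). HAB1 was near the pool in SM1 (0.013, -0.24 and -0.28 with ethanol) and raised in W303-1A (2.04, 2.31 and 2.86), a difference of -2.85 ± 0.62 (adjusted p = 0.0152). PIN4, a cell cycle and checkpoint protein, fell in SM1 (-1.48 ± 0.38) and rose in W303-1A (1.35 ± 0.38), though 1 W303-1A array without ethanol stood far below the others (0.12, -0.095 and -2.03), and its difference was -2.83 ± 0.54 (adjusted p = 0.00799). Those 5 genes were called in 12 of 12 fits with 1 array left out, but FRM2, YAT2 and HAB1 were not called without the dye term. Of the 15 lowest genes, HSP12 and another 5 lost their call in 8 or more of the 12 fits: MNR2 (-4.08), ULI1 (-3.20), TDA8 (-2.67), NUR1 (-2.66) and ENA1 (-2.45). MNR2, a vacuolar magnesium transporter, had swapped arrays far from the other 2, with -6.92, 0.015 and 0.21 in SM1 with ethanol against -0.52, 3.82 and 4.14 in W303-1A with ethanol.

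Glycolytic genes had 2 of 16 called lower and 0 higher (12.5% called, against 6.37% of all genes), with a median difference of -0.70. The lower count was 4 without W303-1A 6.5% replicate 1 and 1 without W303-1A 6.5% replicate 2, SM1 0% replicate 1 or SM1 0% replicate 3, and the median was -0.0016 after quantile normalization, -0.40 with the normal arrays alone and -0.42 with the probe trend removed. TDH1, a glyceraldehyde-3-phosphate dehydrogenase, read 2.30, 1.65 and 2.03 in SM1 with ethanol and 0.38, 0.19 and 0.13 without, against 4.54, 4.56 and 4.02 in W303-1A with ethanol and 0, 0.61 and 0.11 without. It rose in both strains and less in SM1, a difference of -2.37 ± 0.38 (adjusted p = 0.00312). GLK1, glucokinase, differed by -1.53 ± 0.35 (adjusted p = 0.0195), a call lost without W303-1A 6.5% replicate 2, SM1 0% replicate 1 or SM1 0% replicate 3 (adjusted p up to 0.0651). Nor was GLK1 called with the normal arrays alone, without the dye term, after quantile normalization or with the probe trend removed. TDH3, another isoform, had a positive difference that did not pass (1.18 ± 0.38, adjusted p = 0.082). Among the 16 glycolytic genes, 7 were called lower in SM1 than in W303-1A without ethanol and 0 higher (median -0.95). With ethanol 10 were lower and 0 higher (median -1.13). Of all genes, 1.56% were lower without ethanol and 7.19% with it. Trehalose and glycogen genes had 1 of 21 called (4.76%), GLC3, the glycogen branching enzyme (-1.72 ± 0.48, 1 of 12 fits). TPS1, the trehalose phosphate synthase, did not pass (-1.50 ± 0.44, adjusted p = 0.0547).

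Among 16 genes of ethanol and acetaldehyde metabolism, 2 were called higher and 1 lower (18.75% called, against 6.37% of all genes). ALD4, the mitochondrial aldehyde dehydrogenase, read 2.01, 2.09 and 1.88 in SM1 with ethanol and 0.30, 0.77 and 1.26 without, against 3.48, 4.42 and 4.10 in W303-1A with ethanol and 0.18, 0.91 and 1.30 without. Both strains raised it, SM1 less, with a difference of -1.99 ± 0.40 (adjusted p = 0.0103), not called without the dye term or after quantile normalization. ALD6, the cytosolic enzyme of the same reaction, read -0.20, 0.22 and 0.29 in SM1 with ethanol and -0.49, -0.15 and -0.039 without, against -1.73, -1.25 and -1.40 in W303-1A with ethanol and 0.37, 0.50 and 0.44 without. It fell in W303-1A alone, and the difference was 2.23 ± 0.36 (adjusted p = 0.00312). ADH3, the mitochondrial alcohol dehydrogenase, had a difference of 1.84 ± 0.39 (adjusted p = 0.0127), while ADH1 (-1.07 ± 0.45, adjusted p = 0.177) and ADH2 (-1.40 ± 0.45, adjusted p = 0.0779) did not pass. ADH3 was not called without the dye term. In the TCA and glyoxylate cycles 4 of 23 genes were called higher and 1 lower (21.7% called, against 6.37% of all genes). IDH2, a subunit of isocitrate dehydrogenase, rose in SM1 (1.27 ± 0.21) and was not called in W303-1A (-0.54 ± 0.21), a difference of 1.80 ± 0.30 (adjusted p = 0.00353). ACO1, aconitase, fell in W303-1A (-1.58 ± 0.21) and was not called in SM1 (-0.057 ± 0.21), a difference of 1.52 ± 0.29 (adjusted p = 0.00857). The call of ACO1 was lost with the normal arrays alone. SDH2 (1.49 ± 0.35) was called in 9 of 12 fits, FUM1 (2.25 ± 0.55) in 7 and CIT2, the peroxisomal citrate synthase and the lower member (-1.21 ± 0.31), in 4. NDE1, an external mitochondrial NADH dehydrogenase, was the 1 called gene of 32 in the respiratory list (3.1%, against 6.37% of all genes). It fell in both strains, less in SM1, with -1.13, -0.90 and -1.09 in SM1 with ethanol against -2.50, -2.83 and -2.46 in W303-1A with ethanol (1.82 ± 0.36, adjusted p = 0.0101).

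Amino acid genes had 4 of 44 called higher and 6 lower (22.7% called, against 6.37% of all genes). Lysine synthesis had called genes in both directions. The 6 lower genes were 3 without W303-1A 0% replicate 2 or 3, SM1 0% replicate 2 or 3 or SM1 6.5% replicate 1, and 2 without the dye term. CHA1, the serine and threonine deaminase, had the lowest called difference of all genes, -4.46 ± 0.49 (adjusted p = 0.000184). It read 1.95, 1.23 and 1.51 in SM1 with ethanol and 2.58, 1.81 and 0.88 without, against 4.28, 2.89 and 2.95 in W303-1A with ethanol and 0.50, -1.66 and -1.51 without. SM1 held an intermediate level in both media, above the parent without ethanol and below it with ethanol, without overlap at either. ARO10, a decarboxylase of aromatic amino acid breakdown, moved in opposite directions. It read 0.20, -1.19 and -0.77 in SM1 with ethanol and 1.52, 0.76 and 1.17 without, against 2.06, 1.70 and 2.27 in W303-1A with ethanol and 0.42, -0.84 and 0.18 without, a difference of -3.83 ± 0.49 (adjusted p = 0.000542). In lysine synthesis the 2 homocitrate synthase genes of the first step were lower, with differences of -2.32 ± 0.35 for LYS20 (adjusted p = 0.00228) and -1.54 ± 0.33 for LYS21 (adjusted p = 0.0145). LYS21 was not called with the normal arrays alone, without the dye term, after quantile normalization or with the probe trend removed. LYS1, the last step, was lower too (-1.68 ± 0.43, 3 of 12 fits). LYS9, the saccharopine reductase of the step before, was higher. It read -0.10, 0.34 and -0.019 in SM1 with ethanol and -1.32, -0.97 and -0.92 without, against -1.62, -1.36 and -1.38 in W303-1A with ethanol and -0.21, 0.71 and 0.56 without, a difference of 2.95 ± 0.42 (adjusted p = 0.00171). In leucine synthesis LEU1 (2.55 ± 0.31, adjusted p = 0.000374), the branched-chain transaminase gene BAT1 (2.43 ± 0.36, adjusted p = 0.00202) and OAC1, a mitochondrial carrier of oxaloacetate and isopropylmalate (2.67 ± 0.44, adjusted p = 0.00353), were higher. LEU1 read -0.20, -0.46 and -0.57 in SM1 with ethanol and -0.28, -0.47 and -0.40 without, against -2.51, -2.43 and -2.68 in W303-1A with ethanol and 0.12, 0.13 and -0.14 without, so only the parent's ethanol arrays stood apart. Among 24 purine genes 2 were called higher and 1 lower (12.5% called, against 6.37% of all genes). GUA1, the GMP synthase (2.57 ± 0.46, adjusted p = 0.00639), and ADE13 (1.54 ± 0.33) were higher. ADE13 was not called without the dye term. GCV1, of the glycine decarboxylase, was lower (-1.98 ± 0.53, 4 of 12 fits).

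In the other lists between 0 and 3 members were called. The ER and unfolded protein list had 2 of 19 higher (10.5%, against 6.37% of all genes called), among them the disulfide oxidase ERO1 (1.51 ± 0.34, lost without SM1 0% replicate 2 or 3). Its lowest member SCJ1, an ER J-protein, had the largest difference of all genes without a call (-5.24 ± 1.53, adjusted p = 0.0547), and its arrays disagreed within groups, at -5.38, 0.77 and -0.45 in SM1 with ethanol and -0.52, 0.97 and 4.66 in W303-1A with ethanol. Oxidative stress defence had 2 of 28 higher and 1 lower (10.7%), the phosphate regulon 2 of 22 higher and 1 lower (13.6%), amino acid permeases 1 of 19 higher and 2 lower (15.8%), and histones 1 of 10 higher (10%). In the phosphate regulon the higher genes were GIT1, a glycerophosphoinositol permease (2.43 ± 0.68, called in 1 of 12 fits), and the acid phosphatase gene PHO11 (1.56 ± 0.41, called in 3 of 12). Among the lower genes of these lists were the phosphatase gene PHM8 (-1.42 ± 0.31) and DIP5, the permease of dicarboxylic amino acids (-1.35 ± 0.27), both called in 12 of 12 fits. PHM8 was not called with the normal arrays alone or with the probe trend removed, nor DIP5 with the normal arrays alone, without the dye term or after quantile normalization. The proteasome (RPT2, -1.24 ± 0.31), sulfur assimilation (SUL1, -2.20 ± 0.57) and ion pump (ENA1) lists had 1 lower gene each, called in 2 or 3 of 12 fits, and PMA1, the plasma membrane proton pump, did not pass (0.46 ± 0.65, adjusted p = 0.723). The glycerol, hexose transporter, vitamin B6 and thiamine, and mitochondrially encoded lists had 0 called of 12, 22, 21 and 8 genes by the limma fit, and 5, 1, 1 and 1 with an unadjusted p under 0.05. GPD1, of glycerol synthesis, was at -1.04 ± 0.36 (adjusted p = 0.0963).

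Set out by strain level, most of the called genes had a called strain difference only with ethanol in the medium. Without ethanol 98 genes (1.73%) differed between SM1 and W303-1A, 10 higher in SM1 (0.177%) and 88 lower (1.56%). With ethanol 989 (17.5%) differed, 583 higher (10.3%) and 406 lower (7.19%). The count of 98 was 53, 32 and 35 without replicates 1, 2 and 3 of SM1 at 0%, and 55, 62 and 37 without those of W303-1A at 0%. It was 303 after quantile normalization and 483 with array weights, so a gene not called without ethanol may still differ there. The count of 989 was 616 without W303-1A 6.5% replicate 2. Of the 257 higher genes, 213 were not called without ethanol and were higher in SM1 with it, 20 were called at neither level and 1, PHO11, was lower at both. Another 17 were lower in SM1 without ethanol and not called with it, among them OLE1, FET3, CTR1, BAR1, FAS2, FAA4, CWP1 and YGP1, and 6 were lower without and higher with ethanol (ACC1, CLN2, ISU2, LYS9, OAC1, RPL9B). Of the 103 lower genes, 84 were not called without ethanol and were lower in SM1 with it and 14 were called at neither level. CHA1 was higher without and lower with ethanol, 3 were higher without ethanol alone (BSD2, ENA1, YPL113C) and REE1 (-1.13 ± 0.29, called in 4 of 12 fits) was lower at both levels. The pool was made of W303-1A RNA without ethanol, so the ratios of that group set it against RNA of its own kind.

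**Figure D5:**
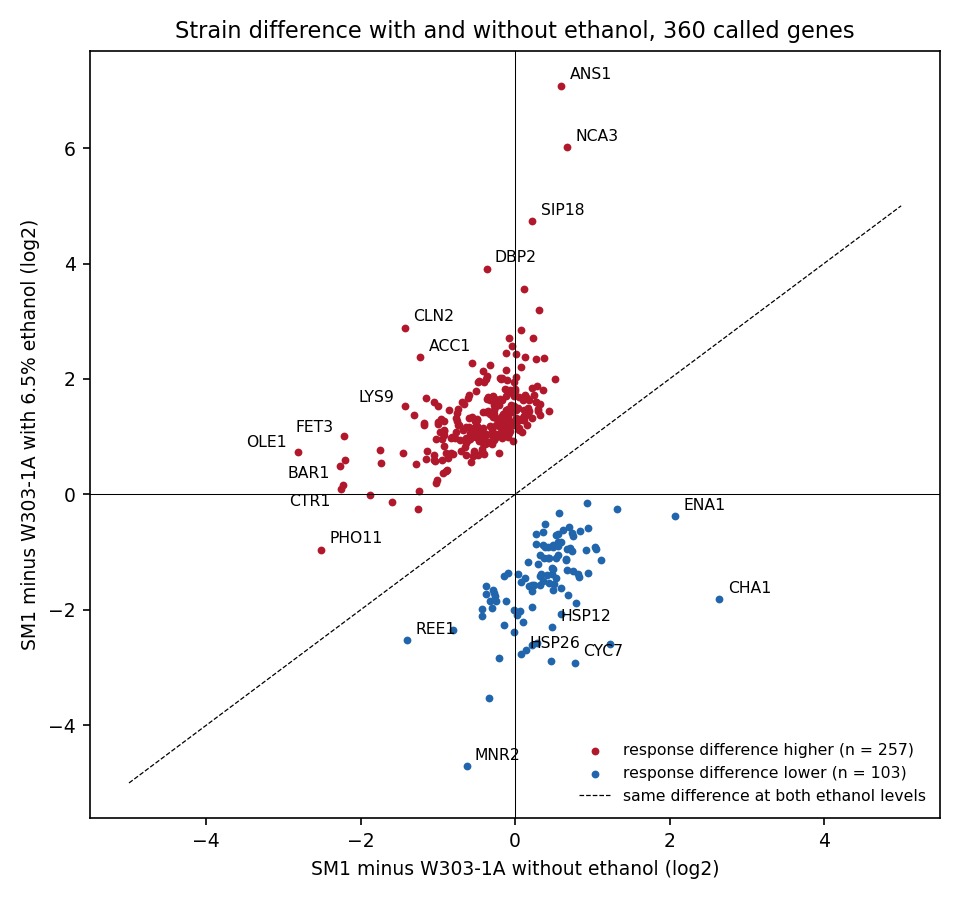
SM1 minus W303-1A with 6.5% ethanol (log2, vertical axis) against SM1 minus W303-1A without ethanol (log2, horizontal axis) for the 360 called genes, red for the 257 higher and blue for the 103 lower response differences; the dashed line marks an equal strain difference at both levels. Most points lie close to 0 on the horizontal axis, and OLE1, FET3, BAR1, CTR1 and PHO11 form an arm to the left while CHA1 and ENA1 lie to the right.

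The mutant CM1 offers a second response to set SM1 against, which shares the SM1 arrays. There 19 genes (0.336%) had a called difference between the SM1 and CM1 responses, 13 higher in SM1 (0.23%) and 6 lower (0.106%). Of the 257 genes higher against W303-1A, 8 were also called higher against CM1, namely ANS1 (6.08 ± 1.10), SIP18 (4.88 ± 0.74), ISU2 (2.94 ± 0.32), CLN2 (2.38 ± 0.44), LEU1 (1.98 ± 0.31), the histone H4 gene HHF2 (2.17 ± 0.35), OAC1 (2.20 ± 0.44) and IPI1 (1.43 ± 0.26), with adjusted p between 0.000816 and 0.0483. HHF2 had kept its call against W303-1A in 8 of 12 fits (1.53 ± 0.35). YGP1 (-1.58 ± 0.31) and ZRT1 (-1.64 ± 0.29) were called lower against CM1. Of the 103 lower genes, 2 were also lower against CM1, DIP5 (-1.56 ± 0.27) and DLD3 (-1.59 ± 0.31). NCA3 was not called against CM1 (3.67 ± 1.12, adjusted p = 0.27), and neither were DBP2 (0.16 ± 0.48), RPL6B (0.37 ± 0.34) or ERG3 (-0.38 ± 0.38).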

How the data were processed

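Total RNA from the same number of cells per culture was labelled with AlexaFluor dyes and hybridised against the W303-1A pool, per the labels' protocols. Replicates 2 and 3 of each group carried the culture in red, and replicate 1 was dye-swapped, per the labels. The values used are the log2 ratios deposited by the authors, 6368 probes on 18 arrays with 0 missing. The steps that made these values, and their log base, centring and direction, are not given in the sources used here, and column medians ran from -0.0041 to 0.030. A base other than 2 would scale all values alike. Gene symbols came from the platform table: 5673 probes had 1 symbol, 0 had several and 695 had none. The 23 genes with 2 probes were averaged.

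Values of swapped arrays were multiplied by -1, to read culture over pool. With limma 3.58.1 in R 4.3.3, 6 group means and a dye term were fitted on all 18 arrays, and the response difference was taken as a contrast, with eBayes moderation and Benjamini-Hochberg adjustment over 5650 genes. Each group holds 1 swapped and 2 normal arrays, so the dye term cancels in the difference and changes only the residual spread. The dye coefficient had an SD of 0.91 over genes, and the 3 deposited columns of W303-1A without ethanol correlated at 0.409 to 0.609. The number of arrays limits the precision. The scripts were tested on simulated data.

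Gene lists (31, with 822 of 829 symbols measured) and alternatives were chosen with earlier results of these data known. Named genes were the 15 highest and 15 lowest called differences, from each list the 4 genes of smallest p, and a panel of known genes; part of these are given. Chosen after their values were seen were BSD2, CIT2, DLD3, EGO4, ERG11, HMG1, HMO1, INM1, IPI1, LYS1, LYS20, LYS21, MRK1, MRP35, OAC1, PEX11, PRY2, REE1, RPA135, RPL1B, RPL6A, RRB1, RRN7, STF2, TDH3, YGR122W, YPC1, YPL113C, YTM1 and ZRT1, as were members of the splits by response and by level. Alternatives were the ratio direction, normal arrays alone, the dye term, a replicate block, the arrays in the fit, centring, quantile normalization, a trend along the probe number, array weights, the variance model, probe averaging and each array left out. Promoter sequences were not analysed here.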

Additional observations from a re-analysis of the deposited data

Results flagged for a closer look

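The response difference is itself a difference between 2 strains under the same contrast, and its interaction test called 360 genes. Within these, 13 genes were called in opposite directions in the 2 strains. Rising in SM1 and falling in W303-1A were CLN2 (4.32), ACC1 (3.61), LYS9 (2.95), ISU2 (2.82), YGP1 (2.79), CWP2 (2.79), CWP1 (2.39), PEX11 (1.95) and MRP35 (1.79), given as log2 response differences. Falling in SM1 and rising in W303-1A were YPC1, an alkaline ceramidase (-1.81), YGR122W (-2.15), PIN4 (-2.83) and ARO10 (-3.83).

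Probes with no gene symbol entered none of the comparisons above. Fitted in the same way, 21 of these 695 probes (3.02%) had a called response difference, 17 higher in SM1 and 4 lower, against 6.37% of named genes.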

How the results depend on the processing

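The 360 called response differences kept their sign under every alternative except the reading of the ratio as already culture over pool on all arrays, where 353 did and 7 turned. Under that reading, swapped arrays not turned, 0 genes were called for the response difference, 1 for the SM1 response, 0 for the W303-1A response, 0 between the strains without ethanol and 8 with ethanol, and of the genes named in the text SIP18 (-0.29), ADH2 (0.23), INO1 (0.89), PMA1 (-0.24) and SCJ1 (0.53) changed sign. Of these 5, SIP18 is among the 7 called genes that turned. Without the dye term the counts were 106, 112, 791, 34 and 511 in the same order. With quantile normalization they were 220, 476, 863, 303 and 552. Array weights gave 870, 799 and 483 for the response difference, the SM1 response and the strains without ethanol, with 61.1% of the 870 above 0 against 71.4% of the 360. The normal arrays alone gave 61 between the strains without ethanol and 268 for the response difference, of which 184 were shared with the 360. Leaving out 1 array at a time gave 151 to 367 for the response difference, 113 to 261 for the SM1 response, 933 to 1429 for the W303-1A response, 32 to 108 between the strains without ethanol and 616 to 1008 with ethanol. The remaining alternatives kept each of these 5 counts within 1.5 times, but not all counts of gene lists, which are given beside the larger lists. With the probe trend removed, ergosterol genes called higher were 4 and not 8, RNA polymerase I genes 3 and not 5, and Msn2/4 targets called lower 2 and not 5. Replicate numbers were not used to pair the samples in the main fit. Over 18 pairs of arrays of the same number, residuals of that fit correlated between -0.420 and 0.107, with 1 pair over 0.1. The dye term takes up whatever the replicate 1 arrays share, so these values cannot exclude a shared batch. With a replicate block, which replaces the dye term, there were 308, 206, 1289, 73 and 906 calls, in the order used above. The causes of these shifts were not tested. With 3 arrays a group and a median standard error of 0.45, many true differences would be missed. In the simulated data, with independent normal errors, 4.55% of response differences of 1 and 57.95% of those of 2 were called. At an unadjusted p under 0.05 in the limma fit, 1305 genes passed. Background signal and spot flags were not analysed here, so the brightness behind a ratio is unknown.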
